A study of Mus musculus with 30 samples.

Results

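The SLC25 mitochondrial carrier genes were taken as every protein-coding mouse gene whose symbol begins with Slc25a, with Ucp2 (uncoupling protein 2) added, after the Ensembl identifiers of the count files were matched to GENCODE M21 (GRCm38). This gave 48 genes of 49089 listed, and 38 of them passed the filter on low counts among 11368 genes that passed. The RNA came from AML12, a mouse hepatocyte line immortalised by a transforming growth factor alpha transgene, kept overnight in serum-free DMEM with 0.1% BSA. Cells received a non-targeting siRNA (Control) or siRNA against Foxk1 (FoxK1 KD), Foxk2 (FoxK2 KD) or both (DKD), and were mock treated (basal, labelled as time 0) or given 100 nM insulin for 6 h. Each of the 8 groups had 4 libraries, except Control and DKD cells after insulin with 3 each, so that 30 libraries were compared. AML12 is 1 line, and nothing in the labels says whether libraries of a group came from separate cultures, so p-values measure the spread between these libraries only, which may be technical.

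Library totals ran from 2141460 to 5668270 counts. Foxk2 fell by 1.57 on the log2 scale in FoxK2 KD and by 1.49 in DKD cells at basal, and Foxk1 fell by 1.14 in FoxK1 KD and by 0.82 in DKD cells. Levels were taken in CPM (counts per 1000000 library counts, with library sizes adjusted by the TMM method). Mean Foxk1 in Control cells was 81.4 CPM at basal and 53.0 CPM after insulin, against 30.9 in FoxK1 KD and 34.2 in DKD cells after insulin. Mean Foxk2 after insulin was 163 CPM in Control, 65.7 in FoxK2 KD and 64.3 in DKD cells. Of 10 hepatocyte markers 8 had a median of at least 1 CPM, with a summed level of 2151 to 2966 CPM. The sum rested mainly on Krt18, Krt8 and Apob, with medians of 1090, 713 and 591 CPM. Hnf4a had a median of 137 CPM, and Serpina1b, Ttr and Trf had 40.0, 36.0 and 14.3 CPM. Alb was at 2.5 to 65.2 CPM and Apoa1 and Cps1 had medians of 0.371 and 0.352 CPM. The cholangiocyte genes Krt19, Krt7 and Sox9 summed to 534 to 1073 CPM with Epcam at 0, the 3 endothelial and 4 stellate cell markers had medians below 1 CPM, and of 4 leukocyte markers Ptprc alone had a median above 1 CPM (0.291 to 2.78 CPM). The first Control basal library stood apart from its group (root-mean-square log2 distance 0.486, against 0.239 to 0.380 for the others). A further 52 genes were lower, and 83 higher, in all 12 basal libraries of Control, FoxK1 KD and FoxK2 KD cells than in all other 18 libraries, DKD basal included. The comparison of DKD with Control at basal and the insulin comparisons within Control, FoxK1 KD and FoxK2 KD cells cross this division, and so does the test of whether the insulin effect in DKD cells differed from that in Control. There the division cannot be told apart from siRNA or insulin.

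SLC25 carriers are small proteins of the inner mitochondrial membrane, each built from repeats of a shared fold that opens alternately to the cytosol and to the matrix. They exchange the nucleotides, phosphate, acids, amino acids and cofactors that mitochondria take up or release, and so connect glycolysis, lipid synthesis, the urea cycle and respiration. In liver the family is known for the citrate carrier that feeds lipid synthesis, the malate-aspartate shuttle, the ornithine carrier of the urea cycle and the acylcarnitine carrier of fat oxidation. FoxK1 and FoxK2 are forkhead transcription factors, a family whose members bind cores such as TAAACA and TAAATA.

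The 250 bases before the RefSeq start (GRCm38.p6) are shown for 5 of the members called. Slc25a28 and Slc25a48 were called higher and Slc25a5 and Slc25a13 lower in DKD cells at basal, and Slc25a30 was called lower after insulin in each genotype. The calls of Slc25a28 and Slc25a48 lay close to the threshold, as given below. These 5 are a choice and do not stand for all members called. Each runs 5′ to 3′ on its own gene's strand, and capitals mark a TAAACA or TAAATA core on either strand.
Slc25a28, chr19:43674882-43675131, minus strand: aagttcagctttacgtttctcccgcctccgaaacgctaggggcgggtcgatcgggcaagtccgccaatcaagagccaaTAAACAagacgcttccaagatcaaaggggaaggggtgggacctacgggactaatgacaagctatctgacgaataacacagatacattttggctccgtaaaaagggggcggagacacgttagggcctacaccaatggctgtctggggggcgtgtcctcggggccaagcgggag
Slc25a48, chr13:56438105-56438354, plus strand: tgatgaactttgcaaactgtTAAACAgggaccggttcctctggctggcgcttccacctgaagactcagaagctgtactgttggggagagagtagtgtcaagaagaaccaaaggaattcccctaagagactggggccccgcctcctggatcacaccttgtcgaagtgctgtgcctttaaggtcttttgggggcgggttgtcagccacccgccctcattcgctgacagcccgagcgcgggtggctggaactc
Slc25a5, chrX:36795347-36795596, plus strand: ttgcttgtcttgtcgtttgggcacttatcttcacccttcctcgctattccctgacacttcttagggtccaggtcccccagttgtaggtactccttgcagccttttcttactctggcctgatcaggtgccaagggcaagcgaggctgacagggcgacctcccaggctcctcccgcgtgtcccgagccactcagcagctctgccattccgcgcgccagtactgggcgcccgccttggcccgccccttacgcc
Slc25a13, chr6:6217174-6217423, minus strand: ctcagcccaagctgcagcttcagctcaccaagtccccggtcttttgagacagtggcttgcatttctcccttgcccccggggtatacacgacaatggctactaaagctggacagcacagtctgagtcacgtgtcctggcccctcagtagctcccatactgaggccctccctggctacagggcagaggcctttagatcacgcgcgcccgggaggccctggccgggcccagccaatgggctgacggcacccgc
Slc25a30, chr14:75787038-75787287, minus strand: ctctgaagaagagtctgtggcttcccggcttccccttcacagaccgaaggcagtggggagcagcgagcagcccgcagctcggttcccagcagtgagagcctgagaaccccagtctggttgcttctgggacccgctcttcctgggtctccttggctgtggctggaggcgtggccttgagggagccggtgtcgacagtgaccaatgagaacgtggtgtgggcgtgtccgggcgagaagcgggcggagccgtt
The match in Slc25a28 began 172 bases before the start and that in Slc25a48 began 230 bases before it, while the other 3 windows held neither core. For Slc25a5 no GENCODE transcript held the bases just after the RefSeq start, and the GENCODE gene begins further on, at 36795651. Its window may therefore not lie at the start in use. The windows of Slc25a42 and Slc25a20, the other members called higher in DKD cells at basal, and of Slc25a16, the other one called lower, held neither core as well. Windows were given for 37 of the 48 members, 47 windows in all. TAAACA lay in 6 of the 47 (12.8%), those of Slc25a15, Slc25a28, Slc25a31, Slc25a36, Slc25a47 and Slc25a48, against 12.0% of all 32851 windows. TAAATA lay in 3 (6.38%), those of Slc25a25, Slc25a38 and Slc25a47, against 12.7% of all windows. These are matches of letters and no measure of binding.

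Levels of different genes were set side by side per kilobase of exon. Lengths were those of all annotated exons of a gene merged (5550 bases for Slc25a3, 1646 for Slc25a5), and the order depends on them. In CPM without lengths, the means over the 30 libraries were 538 for Slc25a5 and 421 for Slc25a3. In Control basal cells the order began with Slc25a5, the ADP/ATP carrier ANT2, at 339 ± 41 CPM per kilobase (SD, n = 4), well above the next gene. Slc25a39, which imports glutathione, was at 113 ± 17.7, Slc25a4 (ANT1, the other ADP/ATP carrier) at 98.7 ± 6.81 and Slc25a11, the oxoglutarate/malate carrier, at 96 ± 9.10, and these neighbours lay within 1 SD of each other. Slc25a3, which brings in phosphate for ATP synthesis, followed at 71 ± 7.93 and Slc25a1, the citrate carrier, at 64.8 ± 12.3, also within 1 SD of each other. Slc25a13 (citrin), the aspartate/glutamate carrier of the malate-aspartate shuttle, was at 37.7 ± 1.45, about the level of the peroxisomal carrier Slc25a17 (42.7 ± 1.99) and the calcium-regulated ATP-Mg/phosphate carrier Slc25a24 (40.4 ± 5.94). Slc25a15, the ornithine carrier, and Slc25a20, the carnitine/acylcarnitine carrier, stood at 7.41 ± 0.852 and 7.99 ± 0.356. The lowest member tested was Slc25a53 at 0.569 ± 0.0896 CPM per kilobase.

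**Figure D1:**
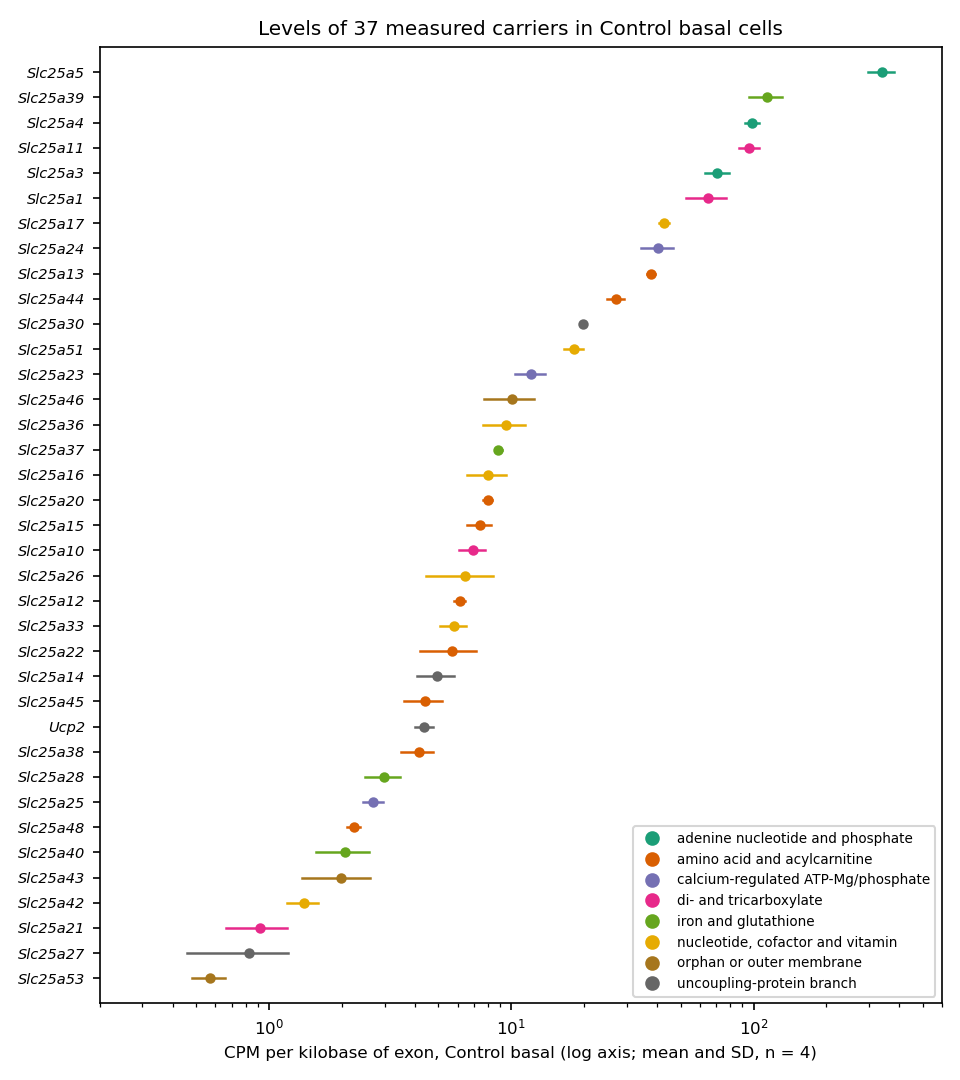
Mean level of 37 measured carriers in Control basal cells, in CPM per kilobase of exon on a log axis, with the SD over 4 libraries as a line and colour for the substrate group. Levels span from 0.569 for Slc25a53 to 339 for Slc25a5.

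Summed over all members, the family held 3233 ± 155 CPM in Control basal cells, and group means ran from 3025 in FoxK1 KD basal to 3495 in FoxK2 KD cells after insulin. Slc25a5, Slc25a3, Slc25a39, Slc25a4 and Slc25a11 together made up 50.5% to 53.9% of it in the group means. In such bulk values, fewer cells of a kind and less RNA per cell cannot be told apart.

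The 10 members too low to test held few counts over the 30 libraries together. They were Slc25a2 with 6 counts, Slc25a18 with 14, Slc25a29 with 51, Slc25a31 with 4, Slc25a32 with 1, Slc25a34 with 2, Slc25a35 with 133, Slc25a41 with 2, Slc25a47 with 150 and Slc25a54 with 2. Slc25a47 is known as a carrier of liver, and Slc25a18 and Slc25a22 both carry glutamate, of which the second was measured. Slc25a32, the folate and FAD carrier, shares no exon with another annotated gene, and the cause of its single count was not tested. Slc25a35 shares 31.3% of its exon bases with Rangrf, Slc25a33 14.9% with Gm13068 and Slc25a11 8.9% with Rnf167, and reads there may be split between both genes. Slc25a5 has a near copy, Slc25a5-ps, which held 21 counts, so its values carry the same uncertainty.

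Insulin was compared with basal within each genotype, which asks how the carriers respond to the hormone. Of the 38 members, 25 passed the test (edgeR quasi-likelihood, Benjamini-Hochberg FDR below 0.05 over all genes tested) in at least 1 genotype, none in opposite directions, and 13 in none. Such counts across genotypes, and that of members called in all 4, were not made for all genes tested. They are therefore not set against a background. In Control cells 7 rose and 3 fell, where 25.4% of all genes tested were called, 12.4% higher and 13.1% lower. In FoxK1 KD cells 14 rose and 4 fell (all genes 31.6%, 16.2% higher and 15.4% lower). In FoxK2 KD cells 12 rose and 2 fell (all genes 28.1%, 14.4% higher and 13.7% lower). In DKD cells 6 rose and 1 fell (all genes 16.3%, 8.31% higher and 7.99% lower). As a share of 38 members these calls were 26.3%, 47.4%, 36.8% and 18.4%. Median log2 fold changes of the members were 0.17 (Control), 0.10 (FoxK1 KD), 0.17 (FoxK2 KD) and 0.15 (DKD), where those of all genes tested were -0.01, 0.01, 0.01 and 0.00. The 4 comparisons share no libraries, but the first 3 cross the division of libraries described above, and the one within DKD cells does not.

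Slc25a22, Slc25a37 and Slc25a30 were the 3 members called in all 4 genotypes. Slc25a22 (ENSMUSG00000019082.18, chr7:141429744-141437892, minus strand) is a mitochondrial glutamate carrier. At basal, Slc25a22 measured 47.1, 27, 30.3 and 32.1 in Control, 32.4, 26.7, 35.1 and 32.4 in FoxK1 KD, 29.6, 33.2, 28.3 and 30.6 in FoxK2 KD and 39.9, 39.3, 43 and 38.5 in DKD cells (CPM). With insulin, Slc25a22 measured 45.9, 50.3 and 52.8 in Control, 73.9, 59.4, 57.6 and 63.1 in FoxK1 KD, 49.4, 51.4, 59.2 and 54.5 in FoxK2 KD and 55.9, 48.4 and 56.1 in DKD cells (CPM). Every insulin library exceeded every basal library of its genotype except in Control cells, where the first basal library reached the insulin range. The rise was 0.55 on the log2 scale in Control (SE 0.13, adjusted p = 0.00155), 0.998 in FoxK1 KD (SE 0.12, adjusted p = 1.11e-07), 0.81 in FoxK2 KD (SE 0.12, adjusted p = 3.04e-06) and 0.43 in DKD cells (SE 0.13, adjusted p = 0.0189). The DKD call ended without insulin replicate 1 (0.40, adjusted p = 0.0762) or replicate 3 (0.39, adjusted p = 0.0721).

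Slc25a37 (ENSMUSG00000034248.7, chr14:69241848-69285112, minus strand) is mitoferrin 1, which imports iron for heme and iron-sulfur cluster synthesis. At basal, Slc25a37 measured 51, 55, 52.6 and 54.5 in Control, 50.7, 45.6, 43.8 and 64 in FoxK1 KD, 62.4, 63.3, 56 and 56.5 in FoxK2 KD and 60.9, 54.1, 67.1 and 57.5 in DKD cells (CPM). With insulin, Slc25a37 measured 54.8, 103 and 96.2 in Control, 99.7, 83.2, 99.1 and 82.4 in FoxK1 KD, 92.6, 76.7, 85.2 and 80.9 in FoxK2 KD and 81.5, 84 and 76.9 in DKD cells (CPM). The groups did not overlap in the knockdown cells, while the first Control insulin library lay within the basal range. The log2 rise was 0.66 in Control (SE 0.14, adjusted p = 0.000419), 0.84 in FoxK1 KD (SE 0.13, adjusted p = 8.74e-06), 0.50 in FoxK2 KD (SE 0.13, adjusted p = 0.0029) and 0.44 in DKD cells (SE 0.14, adjusted p = 0.027). In DKD cells the call ended without basal replicate 1, 2 or 4 or insulin replicate 1 or 2, with log2 values of 0.39 to 0.44 and adjusted p from 0.0538 to 0.0869.

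Slc25a30 (ENSMUSG00000022003.6, chr14:75760117-75787037, minus strand), also named kidney mitochondrial carrier protein 1 and placed in the uncoupling-protein branch, went the other way. At basal, Slc25a30 measured 91, 88, 93 and 89.999 in Control, 98, 70.3, 97.2 and 101 in FoxK1 KD, 87.1, 92, 90.3 and 79.1 in FoxK2 KD and 97.1, 96, 73.1 and 80.9 in DKD cells (CPM). With insulin, Slc25a30 measured 64.3, 57.5 and 60.05 in Control, 56.9, 42.9, 41.1 and 62.7 in FoxK1 KD, 63.9, 58, 52.8 and 53.5 in FoxK2 KD and 62, 53.4 and 58.6 in DKD cells (CPM). All insulin libraries lay below all basal libraries of the same genotype. It fell by 0.58 in Control (SE 0.12, adjusted p = 0.000549), by 0.85 in FoxK1 KD (SE 0.12, adjusted p = 1.24e-06), by 0.60 in FoxK2 KD (SE 0.11, adjusted p = 9.77e-05) and by 0.58 in DKD cells (SE 0.12, adjusted p = 0.001), and no call ended when 1 library was left out. Its promoter window above held neither forkhead core.

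Ucp2 (ENSMUSG00000033685.13, chr7:100493337-100502020, plus strand), of the same branch, moved opposite to Slc25a30. At basal, Ucp2 measured 33.7, 28.8, 31.8 and 28.2 in Control, 27.4, 22.1, 23.3 and 23.5 in FoxK1 KD, 21.6, 27.8, 30.3 and 29.7 in FoxK2 KD and 23.5, 26.5, 29.6 and 27.7 in DKD cells (CPM). With insulin, Ucp2 measured 41.9, 34.1 and 33 in Control, 34.7, 36.6, 31.8 and 32.7 in FoxK1 KD, 40.1, 40.2, 41 and 36.5 in FoxK2 KD and 34.6, 44.1 and 31.8 in DKD cells (CPM). The groups did not overlap in the 3 knockdown genotypes and overlapped in Control. It rose by 0.49 in FoxK1 KD (adjusted p = 0.00242), 0.52 in FoxK2 KD (adjusted p = 0.000671) and 0.44 in DKD cells (adjusted p = 0.014), and the value in Control cells was 0.26 (adjusted p = 0.117). The DKD call ended without basal replicate 1 (0.38, adjusted p = 0.0646) or insulin replicate 2 (0.31, adjusted p = 0.14).

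**Figure D2:**
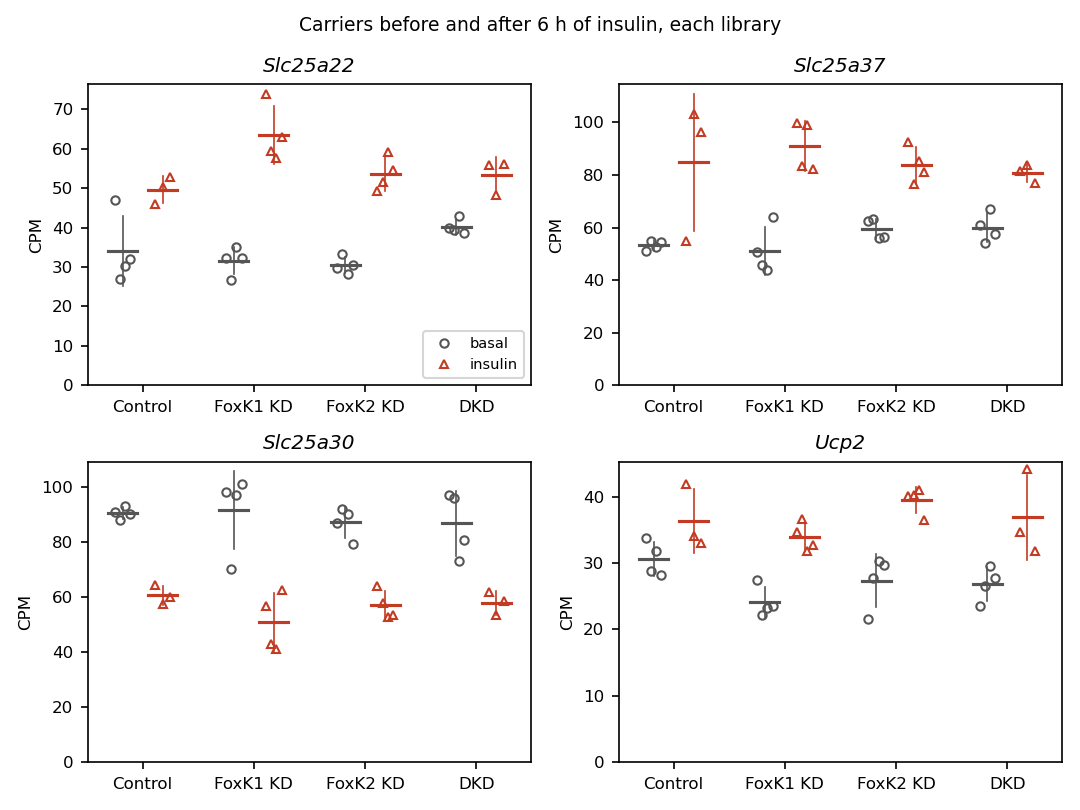
CPM of Slc25a22, Slc25a37, Slc25a30 and Ucp2 in each library by genotype, basal as circles and insulin as triangles, with the group mean as a bar and the SD as a line. Slc25a22 rose by 0.998 on the log2 scale in FoxK1 KD cells, while Slc25a30 fell in all 4 genotypes without overlap.

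Among the carriers of ADP, ATP and phosphate, Slc25a4 rose in 3 genotypes. At basal, Slc25a4 measured 212, 228, 248 and 241 in Control, 239, 235, 235 and 203 in FoxK1 KD, 218, 241, 223 and 236 in FoxK2 KD and 258, 256, 251 and 249.8 in DKD cells (CPM). With insulin, Slc25a4 measured 293, 299 and 258 in Control, 265, 302, 286 and 274 in FoxK1 KD, 299, 272, 293 and 282 in FoxK2 KD and 291, 277 and 275 in DKD cells (CPM). Insulin and basal libraries did not overlap in any genotype. It rose by 0.29 in Control (adjusted p = 0.00435), 0.30 in FoxK1 KD (adjusted p = 0.00119) and 0.32 in FoxK2 KD cells (adjusted p = 0.000639), against 0.15 in DKD cells (adjusted p = 0.181). Slc25a4 was also the only member among the 52 genes lower in the 12 basal libraries than in the other 18. Slc25a3 passed the test in no comparison. At basal, Slc25a3 measured 432, 343, 429 and 371 in Control, 475, 538, 371 and 344 in FoxK1 KD, 357, 406, 472 and 416 in FoxK2 KD and 479, 443, 487 and 383 in DKD cells (CPM). With insulin, Slc25a3 measured 405, 368 and 373 in Control, 475, 463, 416 and 470.3 in FoxK1 KD, 380.3, 418, 459.9 and 403 in FoxK2 KD and 440.03, 433 and 379 in DKD cells (CPM). Its basal and insulin libraries overlapped in every genotype.

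The di- and tricarboxylate carriers gave 1 call in Control, 3 in FoxK1 KD, 2 in FoxK2 KD and 1 in DKD cells of 4 measured, all higher. Of all genes tested, 25.4%, 31.6%, 28.1% and 16.3% were called in that order. Slc25a10, the dicarboxylate carrier that exchanges malate or succinate for phosphate, rose in Control, FoxK1 KD and FoxK2 KD cells. At basal, Slc25a10 measured 28.4, 21.8, 23.1 and 22.7 in Control, 20.6, 25.1, 23.5 and 18.7 in FoxK1 KD, 21, 26.6, 28.1 and 25.7 in FoxK2 KD and 32.7, 30.2, 38.4 and 27.5 in DKD cells (CPM). With insulin, Slc25a10 measured 41.9, 28.8 and 28.6 in Control, 37.7, 35.5, 30.5 and 43.1 in FoxK1 KD, 32.4, 32.5, 43.1 and 34.3 in FoxK2 KD and 44.4, 38.3 and 26.3 in DKD cells (CPM). The groups overlapped in DKD cells alone. Log2 fold changes were 0.48 in Control (adjusted p = 0.0274), 0.75 in FoxK1 KD (adjusted p = 0.000474) and 0.47 in FoxK2 KD cells (adjusted p = 0.0163). Without Control insulin replicate 1 the Control value was 0.26 (adjusted p = 0.332), and its call also ended without Control basal replicate 2, 3 or 4 (adjusted p = 0.0517 to 0.0612). The FoxK2 KD call ended without basal replicate 1 (0.39, adjusted p = 0.0634) or insulin replicate 3 (0.37, adjusted p = 0.0849).

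Slc25a1 (ENSMUSG00000003528.14, chr16:17925223-17928219, minus strand), which exports citrate for fatty acid and sterol synthesis, rose in the 3 knockdown genotypes. At basal, Slc25a1 measured 167, 112, 124 and 159 in Control, 112, 109, 97.6 and 95 in FoxK1 KD, 120.1, 128, 149.99 and 133 in FoxK2 KD and 126, 136, 136 and 135 in DKD cells (CPM). With insulin, Slc25a1 measured 186, 133 and 149.6 in Control, 118, 165, 157 and 157 in FoxK1 KD, 142, 171, 189.9 and 165 in FoxK2 KD and 179, 199 and 157 in DKD cells (CPM). Basal and insulin libraries overlapped in Control and FoxK2 KD cells and were separate in FoxK1 KD and DKD cells. The rise was 0.53 in FoxK1 KD (adjusted p = 0.000945), 0.33 in FoxK2 KD (adjusted p = 0.0322) and 0.42 in DKD cells (adjusted p = 0.0207), and the Control value was 0.16 (adjusted p = 0.376). In DKD cells it passed no longer without basal replicate 1 (0.38, adjusted p = 0.065) or insulin replicate 1 (0.41, adjusted p = 0.063) or 2 (0.33, adjusted p = 0.132), and in FoxK2 KD cells without any 1 library other than basal replicate 3 and insulin replicate 1 (adjusted p = 0.0516 to 0.127). With a correction for the GC content and length of genes, the Slc25a1 values were 0.29 in FoxK1 KD (adjusted p = 0.0547) and 0.20 in FoxK2 KD cells (adjusted p = 0.164), and neither passed. Slc25a11 rose in FoxK1 KD cells (log2 fold change 0.35, SE 0.10, adjusted p = 0.00782). At basal, Slc25a11 measured 208, 175, 214 and 217 in Control, 213, 168, 173 and 188 in FoxK1 KD, 195, 202, 238 and 202 in FoxK2 KD and 200.4, 223, 236 and 209 in DKD cells (CPM). With insulin, Slc25a11 measured 235, 182 and 180.5 in Control, 254, 235, 225 and 230.5 in FoxK1 KD, 201, 217, 272 and 239.7 in FoxK2 KD and 262, 252 and 216 in DKD cells (CPM). The 2 groups of FoxK1 KD libraries did not overlap. With the GC and length correction the value was 0.17 (adjusted p = 0.162) and did not pass. The fourth carrier of the group, Slc25a21, moved by -0.82, -0.74, -0.69 and -0.46 in Control cells and in the FoxK1, FoxK2 and double knockdowns, and passed nowhere (lowest adjusted p = 0.067).

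Of 9 amino acid and acylcarnitine carriers measured, 2 were called in Control, 3 in FoxK1 KD, 4 in FoxK2 KD and 2 in DKD. All were higher, and the shares of all genes tested called were again 25.4%, 31.6%, 28.1% and 16.3%. Slc25a13 rose in DKD cells (log2 fold change 0.32, SE 0.07, adjusted p = 0.00155) and had positive values below the threshold in Control (0.18, adjusted p = 0.0595) and FoxK2 KD cells (0.15, adjusted p = 0.0792). Its paralogue Slc25a12 (aralar) passed nowhere. At basal, Slc25a12 measured 42.2, 47.5, 43.7 and 46.4 in Control, 48.2, 40.9, 44.2 and 43.1 in FoxK1 KD, 42, 44.5, 46.9 and 43.7 in FoxK2 KD and 50.5, 46.2, 37.5 and 56.2 in DKD cells (CPM). With insulin, Slc25a12 measured 59.1, 57.5 and 38.7 in Control, 47.7, 40.7, 44.9 and 49.7 in FoxK1 KD, 52.2, 53.4, 54.3 and 50.4 in FoxK2 KD and 48.1, 51.9 and 45.8 in DKD cells (CPM). The 2 sets of libraries overlapped outside FoxK2 KD cells. Slc25a45 rose in FoxK1 KD (0.74, adjusted p = 0.00347) and FoxK2 KD cells (0.81, adjusted p = 0.00161).

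Slc25a20 and Slc25a15, at the entry of fatty acyl groups and of ornithine into mitochondria, passed in no insulin comparison. At basal, Slc25a20 measured 38.6, 36.5, 40.7 and 39.1 in Control, 44.8, 35.3, 36.5 and 34.2 in FoxK1 KD, 46.3, 40.9, 43.2 and 44 in FoxK2 KD and 42.8, 49.4, 45.3 and 51.4 in DKD cells (CPM). With insulin, Slc25a20 measured 40.6, 32.9 and 31.8 in Control, 38, 41.8, 36.8 and 43.8 in FoxK1 KD, 38.1, 43.2, 46.4 and 37.2 in FoxK2 KD and 43.7, 36 and 34.3 in DKD cells (CPM). In DKD cells the Slc25a20 value was -0.32 (adjusted p = 0.0548), with overlap between the groups. At basal, Slc25a15 measured 37.4, 39.3, 41.7 and 48.4 in Control, 36, 38.9, 42.6 and 36.9 in FoxK1 KD, 43.5, 32, 38.3 and 42.4 in FoxK2 KD and 34.7, 27.1, 38.9 and 35.2 in DKD cells (CPM). With insulin, Slc25a15 measured 50.6, 40.1 and 40.2 in Control, 39.5, 42.2, 43.2 and 33.4 in FoxK1 KD, 38.1, 45.7, 47.3 and 44.1 in FoxK2 KD and 37.6, 41.8 and 48.4 in DKD cells (CPM). Slc25a15 overlapped between basal and insulin in each genotype, and its DKD value was 0.34 (adjusted p = 0.0747).

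Slc25a25, an ATP-Mg/phosphate carrier that adjusts the matrix nucleotide pool in response to calcium, rose in Control (log2 fold change 0.65, SE 0.14, adjusted p = 0.000454) and FoxK2 KD cells (log2 fold change 0.36, SE 0.13, adjusted p = 0.0303). At basal, Slc25a25 measured 19, 23.5, 20.3 and 22 in Control, 23.3, 21.1, 27.8 and 20.1 in FoxK1 KD, 27.8, 20.2, 21.4 and 22.2 in FoxK2 KD and 31.3, 22.7, 27.3 and 26.4 in DKD cells (CPM). With insulin, Slc25a25 measured 37.2, 32.6 and 30.2 in Control, 31.4, 27.3, 28.8 and 29.7 in FoxK1 KD, 29.1, 28.6, 27.3 and 31.8 in FoxK2 KD and 35.9, 24 and 30.1 in DKD cells (CPM). The Control groups were separate, while the FoxK1 KD, FoxK2 KD and DKD groups overlapped. The FoxK2 KD call ended without basal replicate 2, 3 or 4 or insulin replicate 1 or 4 (adjusted p = 0.0564 to 0.103). Slc25a24, of the same type, rose in Control cells (log2 fold change 0.34, SE 0.11, adjusted p = 0.0166), a call that ended without basal replicate 1 (0.26, adjusted p = 0.0538) or insulin replicate 2 (0.31, adjusted p = 0.0695).

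Slc25a48 rose with insulin in Control (log2 fold change 0.62, SE 0.19, adjusted p = 0.0139) and FoxK1 KD cells (log2 fold change 0.81, SE 0.18, adjusted p = 0.000918). At basal, Slc25a48 measured 7.66, 7.25, 7.19 and 8.21 in Control, 6.56, 9.90, 6.82 and 6.96 in FoxK1 KD, 10.8, 8.47, 8.43 and 10.3 in FoxK2 KD and 10.9, 11.1, 10.2 and 10.5 in DKD cells (CPM). With insulin, Slc25a48 measured 11.9, 10.1 and 13.2 in Control, 12.9, 17.9, 8.47 and 12.6 in FoxK1 KD, 10.6, 14, 13.3 and 13.2 in FoxK2 KD and 12.4, 14.3 and 11.1 in DKD cells (CPM). Control libraries did not overlap, and FoxK1 KD libraries did. The Control call ended without insulin replicate 3 (0.54, adjusted p = 0.0751). Slc25a28 (mitoferrin 2) rose in FoxK1 KD cells (log2 fold change 0.77, SE 0.20, adjusted p = 0.0028). At basal, Slc25a28 measured 11.6, 11.5, 12.9 and 8.57 in Control, 11.5, 8.25, 6.82 and 12.6 in FoxK1 KD, 8.03, 16.5, 10.6 and 13 in FoxK2 KD and 16.4, 17.2, 18.5 and 14.1 in DKD cells (CPM). With insulin, Slc25a28 measured 13.7, 14.5 and 14.8 in Control, 18.5, 14.2, 15.7 and 18.9 in FoxK1 KD, 12.8, 17.3, 18.2 and 15.4 in FoxK2 KD and 17.6, 12.8 and 15.5 in DKD cells (CPM). Its FoxK1 KD and Control groups were each separate, although the Control value of 0.38 did not pass (adjusted p = 0.174).

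Of the pyrimidine nucleotide carriers, Slc25a33 was called with insulin in 2 genotypes and Slc25a36 in none, a contrast between genes that was not tested. In Control basal cells they stood at 5.80 ± 0.707 and 9.51 ± 1.88 CPM per kilobase of exon. Their exon lengths were 1887 and 9594 bases, so the CPM values below do not compare these genes. Slc25a33 rose in FoxK1 KD (log2 fold change 0.48, SE 0.17, adjusted p = 0.0301) and FoxK2 KD cells (log2 fold change 0.43, SE 0.15, adjusted p = 0.0305). At basal, Slc25a33 measured 11.6, 9.75, 9.92 and 12.5 in Control, 12.2, 11.9, 7.76 and 10.7 in FoxK1 KD, 9.26, 13.9, 12.8 and 16.3 in FoxK2 KD and 16.1, 13.4, 13 and 11.3 in DKD cells (CPM). With insulin, Slc25a33 measured 12.9, 17.4 and 13.8 in Control, 14.8, 14.6, 14.8 and 14.8 in FoxK1 KD, 17.2, 17.3, 18.8 and 18 in FoxK2 KD and 12.9, 16.6 and 15.5 in DKD cells (CPM). Insulin libraries exceeded basal libraries in Control, FoxK1 KD and FoxK2 KD cells, and the Control value of 0.41 missed the threshold (adjusted p = 0.0785). The FoxK1 KD call ended without basal replicate 3 or any 1 insulin replicate (adjusted p = 0.0533 to 0.149) and the FoxK2 KD call without basal replicate 1 or 3 or insulin replicate 3 or 4 (adjusted p = 0.0547 to 0.136). With the GC and length correction Slc25a33 did not pass in FoxK1 KD (0.30, adjusted p = 0.167) or FoxK2 KD cells (0.34, adjusted p = 0.0699), nor with DESeq2 (adjusted p = 0.0519 and 0.0513). At basal, Slc25a36 measured 64.4, 102, 97 and 101 in Control, 105, 114, 82.3 and 135 in FoxK1 KD, 107, 93.9, 84.9 and 79.1 in FoxK2 KD and 72.9, 82.9, 78.2 and 77.3 in DKD cells (CPM). With insulin, Slc25a36 measured 63.5, 94.2 and 109 in Control, 122, 106, 135 and 91.7 in FoxK1 KD, 100.1, 104, 94.3 and 110.2 in FoxK2 KD and 105, 104 and 100.4 in DKD cells (CPM). Slc25a36 passed in no comparison, with the DKD groups separate (0.41, adjusted p = 0.0709) and the first Control basal library below its group. At basal, Slc25a39 measured 384, 280.3, 282 and 302 in Control, 289.9, 212, 295 and 257 in FoxK1 KD, 234, 263, 288 and 298 in FoxK2 KD and 380.5, 346, 375 and 346 in DKD cells (CPM). With insulin, Slc25a39 measured 326, 293 and 252 in Control, 249, 304, 282 and 309.9 in FoxK1 KD, 306, 314, 325 and 265 in FoxK2 KD and 326, 273 and 349.9 in DKD cells (CPM). Slc25a39 also passed nowhere, and its groups overlapped in each genotype.

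Apart from Slc25a30, 2 members fell in Control cells. Slc25a26 imports S-adenosylmethionine, the methyl donor. At basal, Slc25a26 measured 44.5, 26.3, 29.5 and 23 in Control, 24.2, 18.8, 22.6 and 29.2 in FoxK1 KD, 27.8, 32.9, 31.8 and 30.6 in FoxK2 KD and 40.5, 38.4, 37.9 and 35.7 in DKD cells (CPM). With insulin, Slc25a26 measured 23.2, 19.6 and 20.7 in Control, 24.8, 26.1, 26.7 and 20.8 in FoxK1 KD, 22.7, 24.5, 27.6 and 29.3 in FoxK2 KD and 33.4, 31 and 28.3 in DKD cells (CPM). Its Control libraries overlapped by the lowest basal value. The change in Control was -0.51 (SE 0.16, adjusted p = 0.0181), and it was -0.29 (adjusted p = 0.127) without the first Control basal library, the one that stood apart. It also passed no longer without insulin replicate 2 (-0.45, adjusted p = 0.0874) or 3 (-0.49, adjusted p = 0.0639). Slc25a51 imports NAD+. At basal, Slc25a51 measured 111, 89, 99.98 and 101 in Control, 91.9, 101, 92 and 101 in FoxK1 KD, 96.9, 89.9, 96.4 and 90.6 in FoxK2 KD and 84.1, 94.2, 89.8 and 86.5 in DKD cells (CPM). With insulin, Slc25a51 measured 87.3, 74.9 and 80.8 in Control, 86.8, 70.9, 81.7 and 88 in FoxK1 KD, 70.3, 86.9, 87.1 and 87.9 in FoxK2 KD and 88.8, 83.6 and 78.9 in DKD cells (CPM). Insulin libraries lay below basal ones in Control, FoxK1 KD and FoxK2 KD cells. The fall passed in Control (log2 fold change -0.30, SE 0.09, adjusted p = 0.0143) and FoxK1 KD cells (log2 fold change -0.23, SE 0.09, adjusted p = 0.0393), and the Control call ended without insulin replicate 2 (-0.24, adjusted p = 0.109) or 3 (-0.29, adjusted p = 0.0523), the FoxK1 KD call without basal replicate 2 or 4 or insulin replicate 2 or 3 (adjusted p = 0.0676 to 0.153). Slc25a23 and Slc25a46 fell in FoxK1 KD cells (log2 -0.46 and -0.37), and Slc25a17 fell in FoxK2 KD cells (-0.25). The Slc25a46 call ended without basal replicate 1 or insulin replicate 2 or 4 (adjusted p = 0.0517 to 0.0756), and that of Slc25a17 without basal replicate 4 or insulin replicate 1, 2 or 4 (adjusted p = 0.0557 to 0.0786).

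Several insulin calls lay close to the threshold in other fits. With only the Control libraries in the fit, 7 of the 10 calls in Control cells ended, those of Slc25a4, Slc25a10, Slc25a22, Slc25a24, Slc25a26, Slc25a48 and Slc25a51 (adjusted p = 0.0612 to 0.155). Without the filter on low counts, Slc25a4 and Slc25a48 no longer passed in Control, Slc25a33, Slc25a42 and Slc25a51 in FoxK1 KD and Slc25a17, Slc25a25 and Slc25a33 in FoxK2 KD cells (adjusted p = 0.0515 to 0.116). Besides the losses given for single members, the GC and length correction ended the Slc25a46 call in FoxK1 KD (adjusted p = 0.0954) and those of Slc25a10 and Slc25a17 in FoxK2 KD cells (adjusted p = 0.0591 and 0.0554).

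The knockdowns were compared with Control cells at basal, which asks what the carriers do when FoxK1, FoxK2 or both are reduced. FoxK1 KD lowered 3 members (7.89% of 38) and raised none, where 8.09% of all genes tested were called in either direction. The split of that share by direction is not given. FoxK2 KD gave no call by edgeR and none by DESeq2 or limma-voom, where 0.378% of all genes were called. In FoxK2 KD 4 members had an unadjusted p below 0.05, as did 11.2% of all genes tested. DKD raised 4 members and lowered 3, where 21.1% of all genes were called, 10.3% higher and 10.8% lower. These 3 comparisons share the Control libraries. With the fit restricted to the groups compared, no member passed in FoxK1 KD cells and 4 passed in DKD cells. The shares of all genes called in those fits are not given.

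Slc25a5 (ENSMUSG00000016319.3, chrX:36795651-36798807, plus strand), the most abundant carrier, fell in FoxK1 KD and DKD cells. At basal, Slc25a5 measured 601, 499, 629.7 and 501 in Control, 428, 427, 409.8 and 413 in FoxK1 KD, 517, 539.6, 552 and 588 in FoxK2 KD and 363, 431, 477 and 411 in DKD cells (CPM). With insulin, Slc25a5 measured 655, 542 and 622 in Control, 601, 634, 550.4 and 596 in FoxK1 KD, 521, 555, 697 and 661 in FoxK2 KD and 642, 555 and 512 in DKD cells (CPM). At basal every FoxK1 KD and DKD library lay below every Control library, and all FoxK2 KD libraries lay within the Control range. The FoxK1 KD comparison does not cross the division of libraries described above. The change was -0.41 in FoxK1 KD (SE 0.09, adjusted p = 0.00595) and -0.41 in DKD cells (SE 0.09, adjusted p = 0.00213), against -0.02 in FoxK2 KD cells (adjusted p = 0.952). Neither call ended when 1 library was left out, and with only the 2 groups in the fit the FoxK1 KD value was -0.41 (adjusted p = 0.0896). Slc25a5 rose with insulin in the same 2 genotypes, by 0.50 in FoxK1 KD (adjusted p = 0.000113) and 0.44 in DKD cells (adjusted p = 0.00234). After insulin the knockdown libraries overlapped with Control, with values of -0.03 and -0.09.

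Slc25a4 did not pass in either knockdown (-0.03 in FoxK1 KD and 0.13 in DKD cells, adjusted p = 0.857 and 0.2). Per kilobase, Slc25a4 made up 22.7% ± 2.5 of the ADP/ATP carrier RNA of Slc25a4 and Slc25a5 in Control basal cells (SD, n = 4), 27.5% ± 1.3 in FoxK1 KD, 22.6% ± 0.86 in FoxK2 KD and 29.8% ± 2.6 in DKD cells. After insulin the 4 group means lay between 24.7% and 25.8%. These shares restate the values of both genes, depend on the merged exon lengths and were not tested.

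Slc25a13 (ENSMUSG00000015112.15, chr6:6041218-6217173, minus strand) was the other member that fell in both. At basal, Slc25a13 measured 139, 141, 142 and 151 in Control, 118, 122, 127 and 121 in FoxK1 KD, 142, 152, 146 and 146 in FoxK2 KD and 103, 124, 116 and 113 in DKD cells (CPM). With insulin, Slc25a13 measured 170.3, 153 and 163 in Control, 129, 121, 134 and 128 in FoxK1 KD, 159, 163, 167 and 163 in FoxK2 KD and 144, 139.7 and 143 in DKD cells (CPM). No FoxK1 KD or DKD basal library reached the lowest Control library. It fell by 0.23 in FoxK1 KD (SE 0.07, adjusted p = 0.0227) and by 0.33 in DKD cells (SE 0.07, adjusted p = 0.000469). The FoxK1 KD call ended without Control replicate 4 or FoxK1 KD replicate 1, 2 or 4 (log2 -0.21 to -0.23, adjusted p = 0.0529 to 0.0612), and the DKD call held without any 1 library. Without the filter on low counts the FoxK1 KD value was -0.24 (adjusted p = 0.158). Slc25a12 did not follow it (-0.03 and 0.10, neither passing).

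Slc25a1 fell in FoxK1 KD cells (log2 fold change -0.44, SE 0.12, adjusted p = 0.0178) and its DKD value was -0.08. The FoxK1 KD libraries held at most 112 CPM, just under the lowest Control library, and the Control libraries spread from 112 to 167 CPM. Without Control replicate 1 the change was -0.35 (adjusted p = 0.0949), and it also passed no longer without Control replicate 4 (-0.37, adjusted p = 0.0503) or FoxK1 KD replicate 3 (-0.41, adjusted p = 0.0515) or 4 (-0.40, adjusted p = 0.0617). With the correction for GC content and length it was -0.29 (adjusted p = 0.0978).

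**Figure D3:**
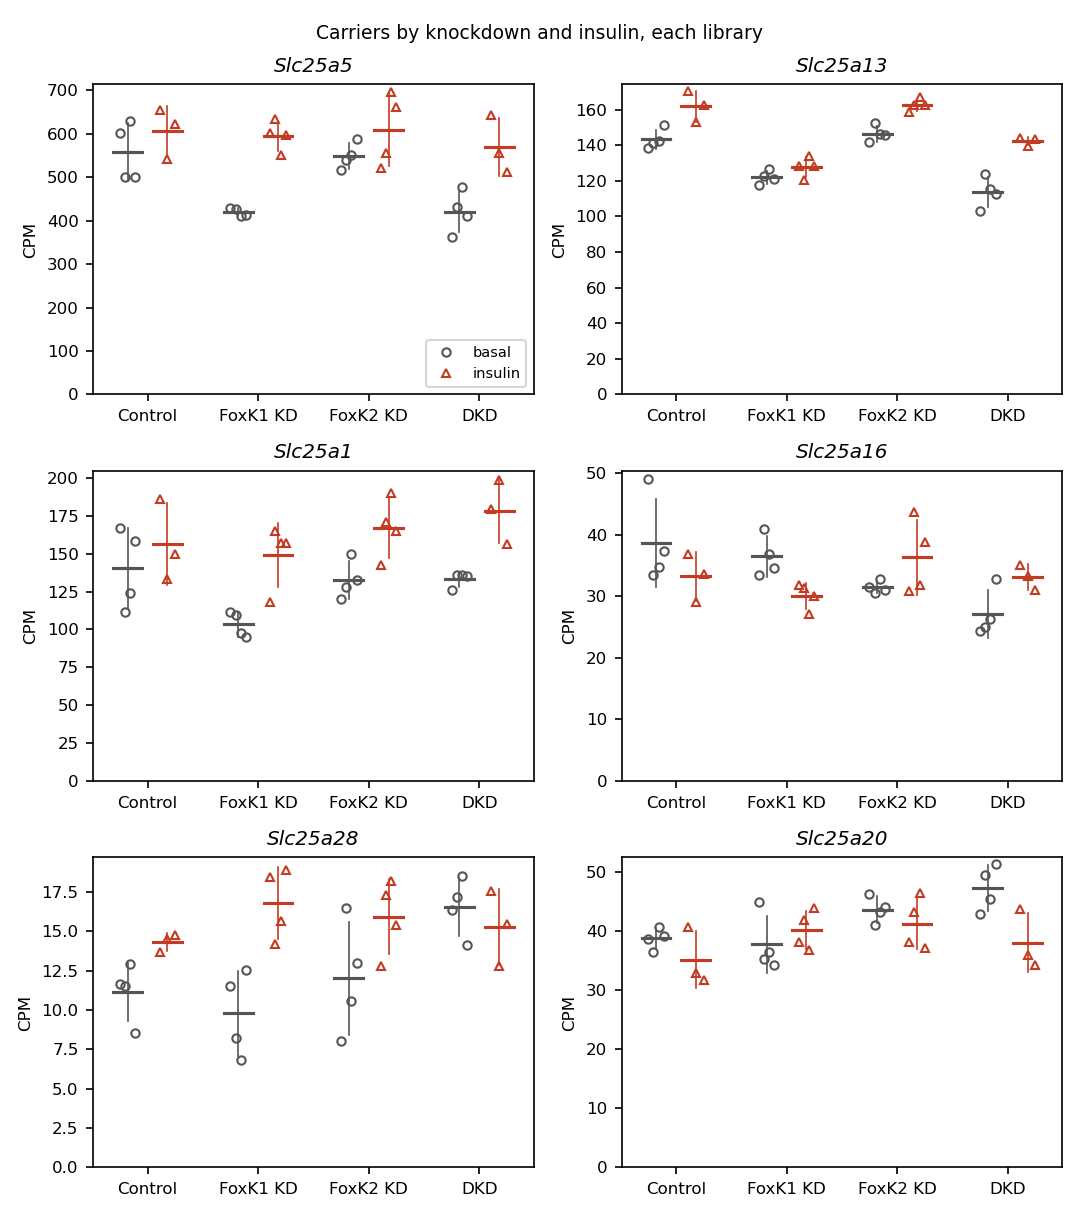
CPM of 6 carriers in each library by genotype, basal as circles and insulin as triangles, with the group mean as a bar and the SD as a line. Slc25a5 and Slc25a13 basal libraries of FoxK1 KD and DKD cells lie below all Control basal libraries, and Slc25a28 and Slc25a20 basal libraries of DKD cells lie above them.

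Slc25a16, a carrier linked to coenzyme A transport, fell in DKD cells. At basal, Slc25a16 measured 49.1, 33.5, 34.7 and 37.3 in Control, 33.5, 40.9, 36.9 and 34.5 in FoxK1 KD, 31.5, 30.6, 32.9 and 31 in FoxK2 KD and 24.4, 25, 26.4 and 32.9 in DKD cells (CPM). With insulin, Slc25a16 measured 36.9, 29.1 and 33.6 in Control, 31.8, 31.4, 27.1 and 30.1 in FoxK1 KD, 30.9, 43.7, 31.9 and 38.7 in FoxK2 KD and 35.1, 33.3 and 30.9 in DKD cells (CPM). All 4 DKD basal libraries lay below the lowest Control library, the closest at 32.9 against 33.5 CPM. The change was -0.49 (SE 0.13, adjusted p = 0.00446), and it held without any 1 library, between -0.61 and -0.37.

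The 4 members raised in DKD cells at basal all lay close to the threshold. Slc25a28 had log2 fold change 0.57, SE 0.19, adjusted p = 0.0249. For Slc25a42, a carrier of coenzyme A, the values were log2 fold change 0.51, SE 0.18, adjusted p = 0.0443. At basal, Slc25a42 measured 8.22, 9.002, 6.70 and 9.46 in Control, 8.37, 9.57, 8.23 and 10.7 in FoxK1 KD, 11.7, 7.06, 9.08 and 5.93 in FoxK2 KD and 10.9, 12.2, 12.5 and 12.3 in DKD cells (CPM). With insulin, Slc25a42 measured 8.17, 13.6 and 10.7 in Control, 14.4, 14.6, 11 and 12.6 in FoxK1 KD, 13, 9.35, 9.10 and 11 in FoxK2 KD and 8.78, 8.51 and 9.51 in DKD cells (CPM). DKD basal libraries exceeded Control basal libraries, and the DKD libraries after insulin lay below the DKD basal ones, a change that did not pass (-0.41, adjusted p = 0.161). In FoxK1 KD cells Slc25a42 rose with insulin (log2 fold change 0.52, SE 0.19, adjusted p = 0.0298), but not without basal replicate 1 or 3 or insulin replicate 1 or 2 (adjusted p = 0.0754 to 0.0943), with DESeq2 (adjusted p = 0.0504), without the filter on low counts (adjusted p = 0.097) or with the GC and length correction (0.38, adjusted p = 0.106). Slc25a48 had log2 fold change 0.49, SE 0.18, adjusted p = 0.0484 and Slc25a20 log2 fold change 0.29, SE 0.10, adjusted p = 0.0427. The DKD libraries of all 4 genes lay above all Control libraries. With DESeq2 the split of DKD calls was 1 higher and 3 lower, with the correction for GC content and length 1 higher and 5 lower, and with a replicate block 1 higher and 3 lower. The calls of Slc25a42, Slc25a48 and Slc25a20 each ended with DESeq2, without the filter, with only the 2 groups in the fit and with the replicate block (adjusted p = 0.0526 to 0.202). With the GC and length correction Slc25a42 was at 0.33 (adjusted p = 0.207), Slc25a48 at 0.36 (adjusted p = 0.193) and Slc25a28 at 0.46 (adjusted p = 0.0741). The Slc25a28 call ended without Control replicate 4 (0.44, adjusted p = 0.114) or DKD replicate 1, 2 or 3 (adjusted p = 0.0591 to 0.0694). Slc25a42 passed no longer without any 1 library other than Control replicate 4 (adjusted p = 0.0559 to 0.135), Slc25a20 without any 1 other than DKD replicate 1 (adjusted p = 0.0508 to 0.137) and Slc25a48 without any 1 library (adjusted p = 0.057 to 0.108). Without the first Control basal library 12 members passed in DKD cells in place of 7. These were 5 higher and 7 lower, in place of 4 and 3. Shares of all genes called in these other fits are not given, so the counts are not set against a background.

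After insulin, the knockdowns were again compared with Control cells. In FoxK1 KD cells 1 member passed, where 3.59% of all genes tested were called. It was Slc25a13, at 170.3, 153 and 163 CPM in Control and 129, 121, 134 and 128 in FoxK1 KD cells, with no overlap. The call (log2 fold change -0.34, SE 0.07, adjusted p = 0.00375) held without any 1 library. In FoxK2 KD cells no member passed by edgeR, DESeq2 or limma-voom, where 0.0264% of all genes were called. An unadjusted p below 0.05 was found for 1 member and for 6.03% of all genes tested. In DKD cells no member passed by these 3 tools, where 1.21% of all genes were called. There 5 members had an unadjusted p below 0.05, as did 12.7% of all genes tested. The lowest adjusted p was that of Slc25a23 (0.0934), at 57.5, 50.3 and 51.6 CPM in Control and 68.5, 70.04 and 68.7 in DKD cells, with no overlap and a log2 value of 0.38. Slc25a26 was 0.54 (adjusted p = 0.139) and Slc25a13 -0.19 (adjusted p = 0.26), also without overlap with Control.

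Whether the insulin effect itself differed between a knockdown and Control cells was tested as an interaction. No member passed in FoxK1 KD, FoxK2 KD or DKD cells by edgeR, DESeq2 or limma-voom, with 8, 2 and 6 at an unadjusted p below 0.05. An unadjusted p below 0.05 was found for 13.4%, 5.5% and 14.6% of all genes tested in that order. At the FDR threshold 0.0% of all genes were called in FoxK1 KD, 0.0% in FoxK2 KD and 1.54% in DKD cells. The largest rise of Slc25a22, in FoxK1 KD cells, exceeded that in Control by 0.45 (SE 0.18, adjusted p = 0.289). For Slc25a5 the difference was 0.38 in FoxK1 KD (adjusted p = 0.254) and 0.32 in DKD cells (adjusted p = 0.287). For Slc25a42 it was -0.76 in DKD cells (adjusted p = 0.176), and for Slc25a24 -0.49 in FoxK1 KD cells (adjusted p = 0.192). The calls of Slc25a5, Slc25a1 and Ucp2 in some genotypes and not in Control are therefore not shown to differ between genotypes.

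**Figure D4:**
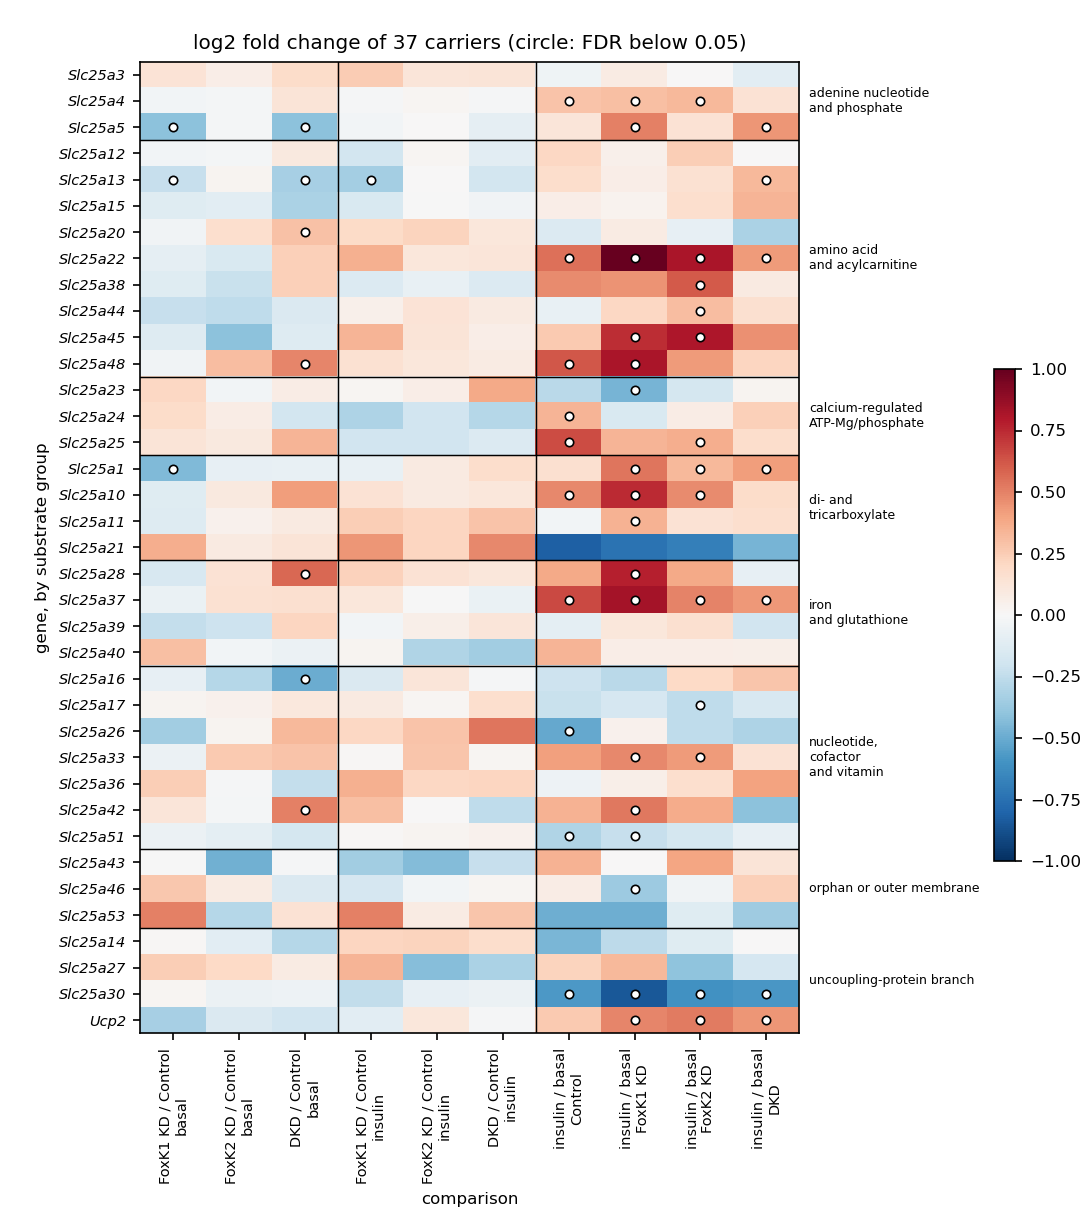
Log2 fold change of 37 measured carriers, in rows by substrate group, in the 6 knockdown comparisons and the 4 insulin comparisons, in columns. Red is higher and blue lower, colours end at -1 and 1, and circles mark an FDR below 0.05. The 4 insulin columns hold 10, 17, 13 and 7 circles, the basal knockdown columns 3, 0 and 7, and the knockdown columns after insulin 1, 0 and 0.

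Other genes at the same membranes were counted from a list of the pyruvate carrier, porins, sideroflexins, ABC transporters and calcium transporters. Of 16 measured, DKD raised 1 and lowered 4 at basal, where 21.1% of all genes tested were called, 10.3% higher and 10.8% lower. Mpc2, a subunit of the mitochondrial pyruvate carrier, fell by 0.39, the serine transporter Sfxn1 by 0.34, and the outer membrane porins Vdac1 and Vdac3 by 0.30 and 0.36. Letm1, which exchanges potassium or calcium for protons, rose by 0.35. Insulin raised 1 and lowered 2 in Control and 2 and 2 in FoxK1 KD cells. It raised 4 and lowered 2 in FoxK2 KD, and raised 4 and lowered 1 in DKD cells. The shares of all genes tested called were 25.4%, 31.6%, 28.1% and 16.3% in that order. Letm1 rose in all 4 genotypes (0.81, 0.70, 0.78 and 0.27 in Control cells and the FoxK1, FoxK2 and double knockdowns) and Sfxn3 fell in all 4 (-0.33, -0.21, -0.26 and -0.41). The Letm1 rise in DKD cells differed from that in Control by -0.54 (adjusted p = 0.0192), a test that crosses the division of libraries described above, and at basal Letm1 was already at 93.2 CPM in DKD against 73.2 CPM in Control cells. Letm1 was itself among the 52 genes lower in the 12 basal libraries than in the other 18. It held at most 79.3 CPM in the 12 and at least 91.1 CPM in the others.

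Of 15 enzymes that use or supply what the carriers move, insulin raised 4 and lowered 1 in Control. It raised 5 and lowered 2 in FoxK1 KD cells, and raised 6 in FoxK2 KD and 2 in DKD cells. In FoxK2 KD and DKD cells no enzyme was called lower. The shares of all genes tested called were 25.4% in Control, 31.6% in FoxK1 KD, 28.1% in FoxK2 KD and 16.3% in DKD cells. Acly, which cleaves the citrate that Slc25a1 exports, rose by 0.55, 0.62, 0.64 and 0.64 in Control cells and the FoxK1, FoxK2 and double knockdowns, and Cs (citrate synthase) by 0.42, 0.25, 0.33 and 0.38 in that order. Cpt1a, which makes the acylcarnitine that Slc25a20 carries, fell in Control (-0.28) and FoxK1 KD cells (-0.27). FoxK1 KD at basal raised Gpd2 by 0.37 and lowered Acly by 0.28 and Oat, the mitochondrial enzyme that uses ornithine, by 0.37. DKD raised Crat by 0.44. At basal 8.09% of all genes tested were called in FoxK1 KD and 21.1% in DKD cells. Mtch1 and Mtch2, family members of the outer membrane under other names, gave 1 basal call, Mtch1 in DKD cells (0.49). Of these 2, insulin raised none in Control, 2 in FoxK1 KD, 1 in FoxK2 KD and 1 in DKD cells, and lowered none. The shares of all genes tested called with insulin are those given above for the enzymes.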

How the data were processed

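RNA-seq counts were used for 30 libraries in 8 groups taken from the sample titles. The authors deposited raw counts of reads per gene for each library, without normalization. The submitters' processing notes name CASAVA 1.8, STAR 2.4.2a, featureCounts and GRCm38.p4, and the strand setting is not given in the sources used here. The 49089 identifiers were matched to GENCODE M21 (48435 found). Of the measured members, 1 enters all counts and sums and is not reported here by name. The members and gene lists were chosen with earlier results of these data known.

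Genes were filtered with filterByExpr, scaled by TMM and tested by the quasi-likelihood method of edgeR 4.0.16 (R 4.3.3), with all 8 groups in the same fit, Benjamini-Hochberg adjustment over 11368 genes and an FDR below 0.05. The SE is the size of the log2 fold change over the root of F. CPM used TMM-adjusted library sizes. The fit was tested on simulated data. Alternatives were DESeq2 1.42.0, limma-voom 3.58.1, no filter, only the groups compared, a replicate block, a GC and length correction, other thresholds and leaving out each library. Values were given in every library for a set of carriers fixed by name (Slc25a47, too low, aside) and for the 5 called members with the largest rise and fall in 4 comparisons. Motifs were searched on both strands of RefSeq windows. No pair of libraries in a group agreed within sampling noise (42 pairs compared, lowest chi-square 1.75 per degree of freedom). Python 3.11.15, pandas 2.3.3 and matplotlib 3.10.9 were used.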

Additional observations from a re-analysis of the deposited data

Results flagged for a closer look

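In 222 groups of 4 libraries (37 members in 6 groups), 10 held 1 library set apart from the other 3 by Dixon's test at 95%, where chance gives about 1 in 20. Low libraries were Slc25a1 in DKD basal replicate 1 (126 CPM, the others 135 to 136) and in FoxK1 KD insulin replicate 1 (118, the others 157 to 165) and Slc25a14 in FoxK1 KD insulin replicate 4 (5.57, the others 10.6 to 11.6). Also low were Slc25a30 in FoxK1 KD basal replicate 2 (70.3 CPM, the others 97.2 to 101), Slc25a36 in Control basal replicate 1 (64.4, the others 97.0 to 102), Slc25a4 in FoxK1 KD basal replicate 4 (203, the others 235 to 239) and Slc25a51 in FoxK2 KD insulin replicate 1 (70.3, the others 86.9 to 87.9). High libraries were Slc25a11 in FoxK2 KD basal replicate 3 (238 CPM, the others 195 to 202), Slc25a23 in DKD basal replicate 3 (72.6, the others 66.0 to 66.5) and Slc25a48 in FoxK1 KD basal replicate 2 (9.90, the others 6.56 to 6.96).

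For the coenzyme A carrier Slc25a42, each insulin library exceeded each basal library in FoxK1 KD cells (log2 0.52, adjusted p = 0.0298), and each lay below in DKD cells (log2 -0.41, adjusted p = 0.161). The DKD value did not pass, and the FoxK1 KD call ended without any 1 of 4 of the 8 libraries (adjusted p = 0.0754 to 0.0943), with DESeq2 (adjusted p = 0.0504), without the filter (adjusted p = 0.097) and with the GC and length correction (0.38, adjusted p = 0.106). The difference between these 2 genotypes was not tested.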

How the results depend on the processing

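Counts of members called moved by over 1.5 times as follows. With only the groups compared in the fit, FoxK1 KD at basal gave 0 in place of 3, DKD at basal 4 in place of 7 and insulin in Control 3 in place of 10. For DKD at basal, DESeq2, no filter on low counts and the replicate block each gave 4. At an FDR below 0.25, FoxK1 KD at basal gave 11, FoxK2 KD 1 and DKD 18. Where a fold change above 1.5 was asked for beside the FDR of 0.25, insulin gave 4 in Control, 8 in FoxK1 KD, 5 in FoxK2 KD and 0 in DKD cells, and the DKD interaction gave 1. Leaving out 1 library gave 1 to 4 calls in FoxK1 KD and 4 to 12 in DKD cells at basal (12 without Control replicate 1, 1 without FoxK1 KD replicate 4). For insulin it gave 8 to 12 in Control, 13 to 18 in FoxK1 KD and 10 to 13 in FoxK2 KD cells. These ranges stayed within 1.5 times of the main counts. For insulin in DKD cells, leaving out 1 library gave 4 to 7 calls (4 without insulin replicate 2), and no count changed elsewhere. Shares of all genes called are not given for these other fits and thresholds, so the counts are not set against a background. The cause of these moves was not tested.

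Of 60 member calls, 34 held without any 1 library. DESeq2 kept 54, limma-voom 60, the fit without the filter 48, only the groups compared 47, the GC and length correction 46 and the replicate block 57. No call changed sign under these alternatives. Replicate numbers did not pair the libraries (mean correlation -0.0134 over 99 same-numbered pairs, 0.00434 over 294 others, and 5 of 30 libraries correlated best with their own number).
With the GC and length correction, calls split 6 higher and 2 lower for insulin in DKD cells, in place of 6 and 1. The share of all genes called in that fit is not given. Members near 1 CPM have wide errors at 2141460 to 5668270 counts a library.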
